A study of Mus musculus with 8 samples.

Results

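The Hsp70 and Hsp110 chaperones were examined in whole MC38 tumors that had, or had not, been exposed to violet light. The 10 genes Hspa1a, Hspa1b, Hspa1l, Hspa2, Hspa8, Hspa5, Hspa9, Hspa4, Hspa4l and Hsph1 were taken by symbol from a table of 24421 genes. All 10 were found, and all 10 passed the filter on low counts. The smallest count of any of them was 12, for Hspa1l in control tumor 2. Hspa1a and Hspa1b are near-identical copies, so they were also read as their sum, called the inducible pair here.

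Hsp70 proteins bind exposed hydrophobic stretches of unfolded proteins and release them in a cycle driven by ATP. J-domain proteins deliver clients and trigger ATP hydrolysis, and nucleotide exchange factors, including the Hsp110 proteins, let ADP go so that the client is released. Hspa8 is the constitutive cytosolic Hsp70, Hspa5 (BiP) serves the endoplasmic reticulum (ER) and Hspa9 (mortalin) the mitochondrial matrix. Hspa1a and Hspa1b are classical targets of heat shock factor 1 (HSF1), which binds heat shock elements in promoters when unfolded protein accumulates.

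MC38 is a mouse colon carcinoma line. All 8 tumors grew from 250000 cells in female B6 Kaede mice aged 9 weeks, which carry a protein that changes from green to red fluorescence in violet light. The 4 photoconverted tumors received 405 nm light for 3 min on day 10, and the 4 control tumors received none. All tumors were taken 5 h after the light, each from a different mouse, and RNA was sequenced from bulk tissue, so more cells of a type and more RNA per cell cannot be told apart.

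The libraries held 16735293 to 35844417 counts in photoconverted tumors and 12576615 to 29439901 in controls. The share of counts on Rn45s, a ribosomal RNA precursor, was under 10% in photoconverted tumors 1 to 3 and control tumors 1 and 3. It was 21.9% in photoconverted tumor 4, 35.7% in control tumor 2 and 23.2% in control tumor 4, and a fit of the other 5 tumors is therefore given for the family members. Of 8 epithelial markers, Cdx2 had at most 3 counts in every tumor, and the 8 together reached 3.62 to 6.60 CPM (counts scaled to library size). The injected line alone was not among the samples, so its own level of these markers is not known here.

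Hspa1a and Hspa1b are both single-exon genes on the minus strand of chromosome 17, at chr17:34969190-34972156 and chr17:34956436-34959238 (GRCm38). Hspa1l, a related gene known mainly from testis, lies beside Hspa1a on the plus strand at chr17:34972703-34979285, with a start site 547 bases from that of Hspa1a and transcription in the opposite direction. The 250 bases before the start sites of the pair are shown because both copies carry a match to a short heat shock form, GAANNTTC, there. It lies at the same distance from the start. The sequences are those of RefSeq on GRCm38.p6, minus strand, at chr17:34972157-34972406 for Hspa1a and chr17:34959239-34959488 for Hspa1b, with the match to GAANNTTC in capitals.
Hspa1a: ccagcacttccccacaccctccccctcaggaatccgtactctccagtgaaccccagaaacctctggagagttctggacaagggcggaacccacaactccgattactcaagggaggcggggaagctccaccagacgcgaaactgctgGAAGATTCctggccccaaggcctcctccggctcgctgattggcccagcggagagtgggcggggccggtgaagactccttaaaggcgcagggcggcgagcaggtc
Hspa1b: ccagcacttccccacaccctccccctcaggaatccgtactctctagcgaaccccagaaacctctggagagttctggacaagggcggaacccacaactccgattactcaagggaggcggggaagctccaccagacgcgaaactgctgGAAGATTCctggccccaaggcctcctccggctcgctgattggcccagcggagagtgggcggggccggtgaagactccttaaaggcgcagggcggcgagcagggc
The 2 stretches differed at 3 positions, C44T, T47C and T249G, counted from 1 at the 5′ end with the Hspa1a base first. The match GAAGATTC lay 104 to 97 bases before the start site in both.

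Windows of the same length were on file for 8 of the 10 genes, and 2 further sites among them are shown to set the ER member beside the inducible Hsp110. Hsph1 carried a match to the short heat shock form in the other orientation (TTCNNGAA) 33 to 26 bases before a RefSeq start site. Hspa5 carried an ER stress response element (CCAAT, 9 bases of any kind, then CCACG) 65 to 47 bases before its RefSeq start site. By the gene bounds of GENCODE, which start further upstream, both elements lie inside the gene. Each is given with flanks to 30 bases in all, on GRCm38.p6, at chr5:149636351-149636380 on the minus strand and chr2:34772020-34772049 on the plus strand, with the match in capitals.
Hsph1: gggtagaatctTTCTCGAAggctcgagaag
Hspa5: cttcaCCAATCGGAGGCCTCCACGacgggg
Motifs were searched on both strands, and each heat shock form reads the same on either. Of 32851 promoter windows in the table, 6.69% held GAANNTTC, 7.17% held TTCNNGAA, 12.8% held either and 0.113% held the ER stress response element. The windows of Hspa1l, Hspa2, Hspa4, Hspa4l and Hspa5 held neither heat shock form. A match describes these letters only.

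The inducible pair was far higher in 3 of the 4 photoconverted tumors than in any control. In order of tumor number, the pair reached 8048, 6022, 12147 and 191 CPM after light, and 112, 120, 111.0 and 1056 CPM in the controls. Photoconverted tumor 4 thus lay below control tumor 4, and the groups overlapped. The edgeR quasi-likelihood test gave an 18.9-fold difference (log2 fold change 4.24, SE 1.23, n = 4 against 4), with an unadjusted p of 0.00705 and a Benjamini-Hochberg adjusted p of 0.999. On log2 CPM the groups differed by 4.03, and the two-sided exact permutation test over 70 arrangements gave p = 0.0571, where the smallest possible is 0.0286.

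In each copy, photoconverted tumors 1 to 3 were above all controls and control tumor 4 was the highest control. Hspa1a stood at 3531, 2686, 5465 and 71.6 CPM in the photoconverted group and at 51.5, 51.1, 31.2 and 433 CPM in the controls. Hspa1b stood at 4517, 3336, 6681 and 119 CPM and at 60.6, 68.8, 79.8 and 623 CPM in the same order. Among 14468 genes tested, Hspa1a and Hspa1b had the largest and second largest log2 fold changes (4.38, SE 1.28, and 4.14, SE 1.20), and Hspa1l had the third largest. By mean CPM over all genes, Hspa1a ranked 1205 in controls and 9 in photoconverted tumors, and Hspa1b ranked 722 and 7.

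**Figure D1:**
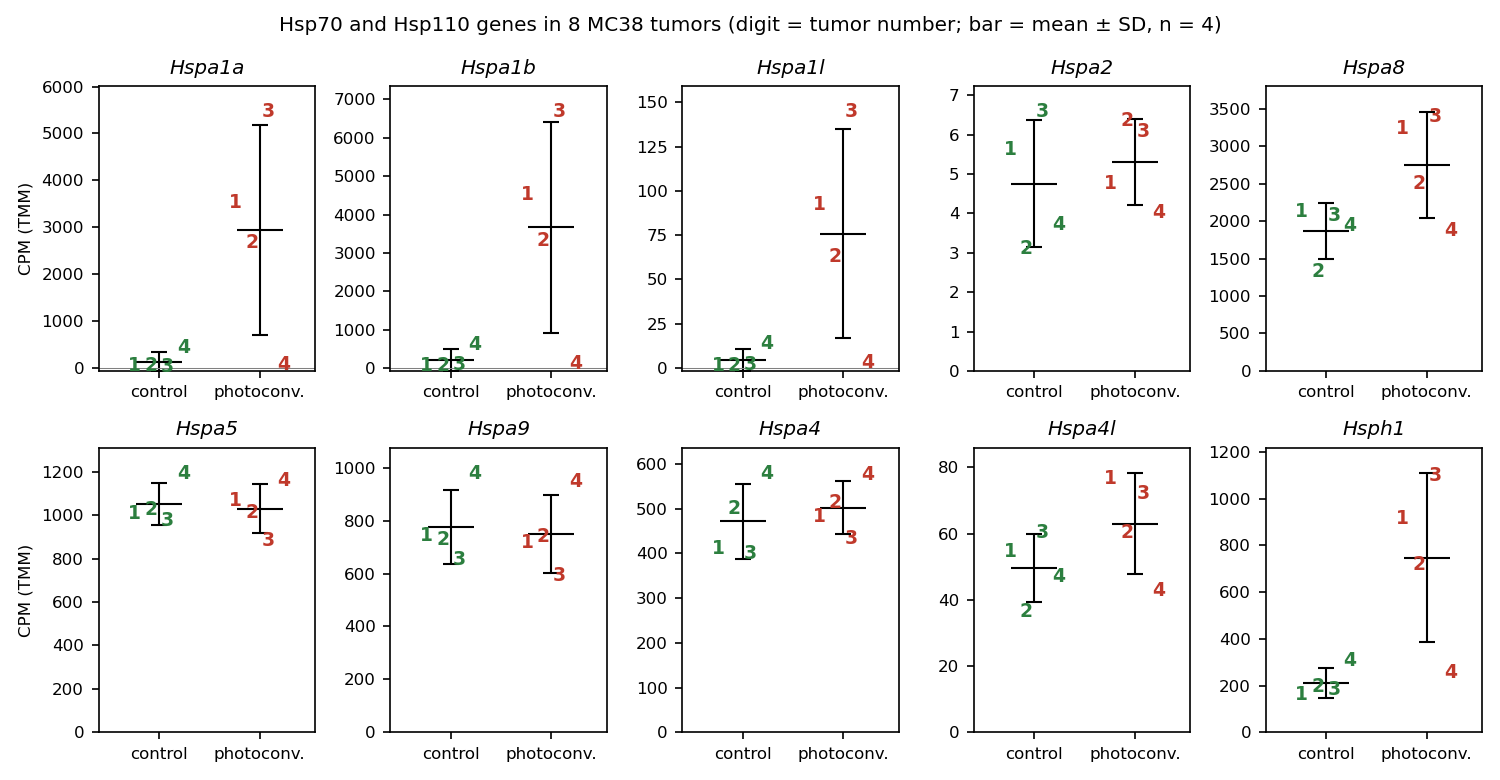
CPM of each of the 10 genes (vertical axis, linear, scaled separately per gene) in control and photoconverted tumors. Digits are tumor numbers and bars are means ± SD (n = 4). For Hspa1a, Hspa1b, Hspa1l and Hsph1, photoconverted tumors 1 to 3 stand above all controls and photoconverted tumor 4 stands below control tumor 4.

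No gene of the 14468 tested passed an adjusted p of 0.05 in edgeR over all 8 tumors (0% of genes), although 322 had an unadjusted p under 0.05 and DESeq2's Wald test called 24. At an unadjusted edgeR p under 0.05, 5 of the 10 family members were higher in photoconverted tumors (Hspa1a, Hspa1b, Hspa1l, Hspa8 and Hsph1), against 1.65% of all genes, and no member was lower. Not 1 of the 10 separated the groups without overlap, against 1.33% of all genes. In the 5 tumors with little Rn45s, 4 of 10 members passed an adjusted p of 0.05 as higher (Hspa1a, Hspa1b, Hspa1l and Hsph1), against 0.243% of 15252 genes. Those 5 tumors leave out photoconverted tumor 4 and control tumors 2 and 4.

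Within those 5 tumors the pair was higher by 6.29 on the log2 scale (SE 0.37, edgeR adjusted p = 0.00404). Leaving out control tumor 4 alone gave a log2 fold change of 5.85, and leaving out photoconverted tumor 4 alone gave 4.64, both with edgeR adjusted p over 0.05. Within same-numbered tumors, the pair was higher in the photoconverted tumor by 6.17, 5.65 and 6.77 log2 CPM for numbers 1 to 3, and the difference was -2.47 for number 4. The exact sign-flip test over these 4 pairs gave p = 0.250, and with 4 pairs it cannot pass 0.05.

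Transcripts of neighboring tissue and of neutrophils also differed between these tumors, and their part in the result was not tested. All 11 skeletal muscle markers had a positive log2 fold change, against 6768 of all 14468 genes tested. Of the 11, 2 had an unadjusted edgeR p under 0.05, where 1.65% of all genes were higher. The summed level of the 11 was 202 to 1647 CPM in photoconverted tumors against 202 to 482 CPM in controls. All 7 neutrophil markers tested had an unadjusted edgeR p under 0.05 and were higher, against the same 1.65% of all genes. Their sums were 66.3, 79.6, 115 and 21.0 CPM in the photoconverted group and 18.7 to 30.6 CPM in controls. Keratinocyte markers summed to 1.03 to 24.0 CPM and to 1.06 to 3.09 CPM, and adipocyte markers to 24.3 to 126 CPM and to 19.1 to 52.3 CPM. Macrophage markers (404 to 922 CPM against 310 to 805 CPM) and T cell markers (9.64 to 22.9 CPM against 5.43 to 23.4 CPM) overlapped widely, and none of their genes had a p under 0.05. In control tumor 4, where the pair was at 1056 CPM, the muscle and neutrophil sums were 202 and 19.8 CPM, the lowest and the second lowest among controls.

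How reads were split between the copies bears on the separate values of Hspa1a and Hspa1b. The coding sequences were 99.4% identical, and 38.1% of all 150-base stretches of the Hspa1a transcript also occurred in Hspa1b. The ratio of Hspa1b to Hspa1a counts was 1.28, 1.24, 1.22 and 1.66 in photoconverted tumors and 1.18, 1.35, 2.56 and 1.44 in control tumors. The group difference in this ratio was -0.21 on the log2 scale (exact permutation p = 0.571), so the 2 copies were not told apart in their response.

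Hspa1l followed the pair at a far lower level. Hspa1l stood at 92.5, 62.9, 145 and 3.01 CPM in photoconverted tumors and at 1.60, 1.28, 1.78 and 14.0 CPM in controls, so that here too photoconverted tumors 1 to 3 were above all controls and photoconverted tumor 4 was below control tumor 4. The edgeR log2 fold change was 4.04 (SE 1.13, unadjusted p = 0.00570, adjusted p = 0.999), and in the 5 tumors with little Rn45s it was 5.89 (adjusted p = 0.00622). For every 100 counts on the pair, Hspa1l had 1.15, 1.04, 1.19 and 1.58 counts in photoconverted tumors and 1.43, 1.07, 1.60 and 1.33 in controls.

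The near-constant proportion of Hspa1l to the pair held while the pair itself ranged from 111.0 to 12147 CPM. The coding sequence of Hspa1l was 83.1% identical to that of Hspa1a, and 84 of 2818 stretches of 150 bases in the Hspa1a transcript (2.98%) occurred in Hspa1l too. Reads of the pair and of Hspa1l may therefore be partly shared, and since the strand setting of the counting was not stated, reads from the neighboring start sites cannot be assigned with certainty. No stretch of that length was shared between Hspa1a and any of the other 7 members apart from Hspa1b and Hspa1l.

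Hspa2, an Hsp70 of the male germ line, stayed low in every tumor. It stood at 4.75, 6.35, 6.07 and 4.03 CPM in photoconverted tumors and at 5.62, 3.10, 6.58 and 3.72 CPM in controls. Its log2 fold change was 0.14 (SE 0.28), and 2 standard errors on either side ran from -0.41 to 0.69. In the 5 tumors with little Rn45s the direction turned (-0.094, SE 0.20). Germ cell markers were near 0, with 5 of 7 (Dazl, Sycp3, Prm2, Tnp1 and Acrv1) at 3 counts or fewer in every tumor and a summed level of at most 0.671 CPM.

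Hsph1, the inducible Hsp110 and an exchange factor for Hsp70 (chr5:149614287-149636376, minus strand, 18 exons), had the smallest p of the family. Its level was 914, 718, 1097 and 256 CPM in photoconverted tumors and 164, 194, 184 and 308 CPM in controls. Again photoconverted tumors 1 to 3 lay above every control and photoconverted tumor 4 below control tumor 4. The edgeR fold difference was 3.51 (log2 1.81, SE 0.41, unadjusted p = 0.00149, rank 7 of 14468 by p, adjusted p = 0.999).

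The call for Hsph1 depended on the test and on the tumors included. DESeq2's Wald test over all 8 tumors called it higher with an adjusted p of 0.0192, the single family member among the 0.136% of 16969 genes called higher. Without photoconverted tumor 4 the edgeR log2 fold change was 2.09 (adjusted p = 0.0390), again the single member called, against 0.0745% of 14770 genes. In the 5 tumors with little Rn45s it was 2.39 (edgeR adjusted p = 0.0101).

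The constitutive Hsp110 Hspa4 (chr11:53259814-53300457, minus strand) showed no such spread. It stood at 483, 514, 434 and 576 CPM in photoconverted tumors and at 412, 500, 400 and 579 CPM in controls. Its log2 fold change was 0.09 (SE 0.16), with 2 standard errors reaching from -0.23 to 0.40, and it was 0.23 (SE 0.11, edgeR adjusted p = 0.520) in the 5 tumors with little Rn45s. Within each library the ratio of Hsph1 to Hspa4 counts was 1.89, 1.40, 2.53 and 0.445 in photoconverted tumors and 0.397, 0.389, 0.461 and 0.532 in controls. The log2 ratio differed by 1.57 between groups, with an exact permutation p of 0.0857 and 0.103 after Benjamini-Hochberg adjustment over the 6 ratios tested.

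Hspa4l, the third Hsp110 gene (chr3:40744495-40796103, plus strand), lay between these patterns. It stood at 76.7, 60.4, 72.2 and 42.7 CPM in photoconverted tumors and at 54.7, 36.4, 60.2 and 47.2 CPM in controls. Its lowest value above the controls was 60.4 CPM in photoconverted tumor 2, just over the 60.2 CPM of control tumor 3. The log2 fold change was 0.34 (SE 0.21) with an unadjusted edgeR p of 0.140, and it passed an unadjusted 0.05 only when photoconverted tumor 4 was left out or when the fit held a term for the replicate number or for the Rn45s share. In the 5 tumors with little Rn45s it was 0.28 (SE 0.12, edgeR adjusted p = 0.484).

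Hspa8, the constitutive cytosolic Hsp70 (chr9:40800984-40810087, plus strand, 9 exons), differed by less, from a high level. It stood at 3237, 2498, 3398 and 1869 CPM in photoconverted tumors and at 2130, 1322, 2072 and 1947 CPM in controls. Photoconverted tumors 1 to 3 were above all controls and photoconverted tumor 4 was below 3 of them. The edgeR fold difference was 1.47 (log2 0.56, SE 0.23, unadjusted p = 0.0405, adjusted p = 0.999), and it did not pass the adjusted threshold in the 5 tumors with little Rn45s either (log2 0.53, adjusted p = 0.354). The unadjusted p was over 0.05 on leaving out any of photoconverted tumors 1 to 3 or control tumors 2 to 4.

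The ER and mitochondrial members did not separate the groups. Hspa5 (chr2:34771970-34777547, plus strand) stood at 1066, 1012, 885 and 1158 CPM in photoconverted tumors and at 1008, 1026, 974 and 1192 CPM in controls. Hspa9 (chr18:34937414-34954357, minus strand) stood at 718, 740, 594 and 947 CPM in photoconverted tumors and at 744, 729, 651 and 978 CPM in controls. In both genes the highest 2 tumors were the tumors numbered 4, and photoconverted tumor 3, which led for the pair, was the lowest.

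The edgeR log2 fold changes of Hspa5 (-0.03, SE 0.14) and Hspa9 (-0.05, SE 0.18) were close to 0. With 2 standard errors on either side they ran from -0.30 to 0.25 and from -0.42 to 0.32, so that a doubling or a halving lay outside both ranges. In the 5 tumors with little Rn45s they were -0.01 and -0.03.

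**Figure D2:**
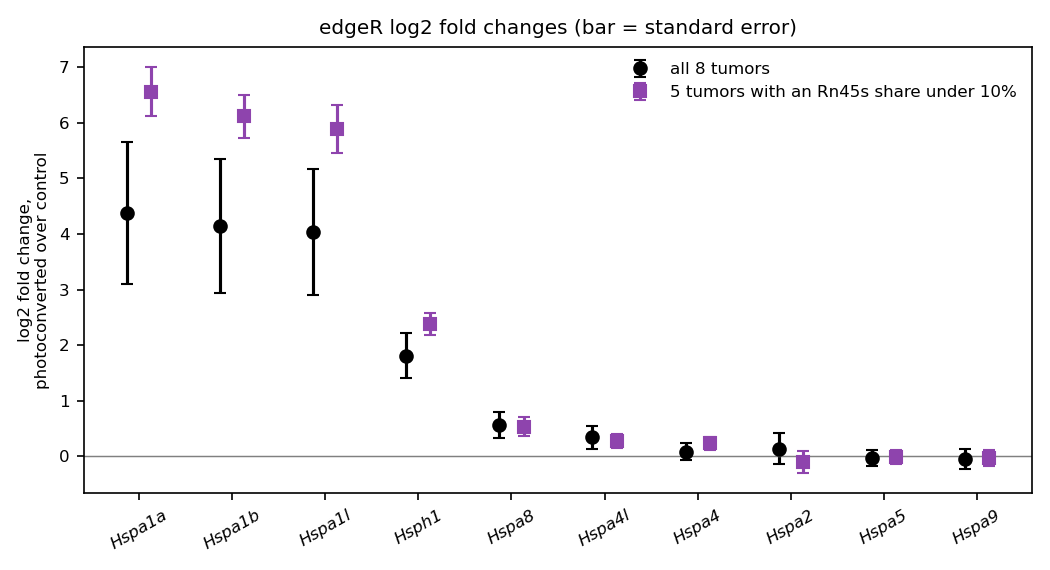
edgeR log2 fold change of photoconverted over control tumors for each gene (vertical axis), with standard errors as bars, over all 8 tumors (circles) and over the 5 tumors with an Rn45s share under 10% (squares). Hspa1a, Hspa1b and Hspa1l stand above 4 over all tumors and above 5.8 over the 5 tumors, and Hspa5 and Hspa9 stand near 0 in both.

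Ratios within a library, which need no scaling between libraries, set the inducible pair against each constitutive member. The pair had 2.49, 2.41, 3.57 and 0.102 counts per count of Hspa8 in photoconverted tumors, and 0.0526, 0.0907, 0.0536 and 0.543 in controls. The pair thus exceeded Hspa8 in photoconverted tumors 1 to 3 and in no other tumor. The log2 ratio differed by 3.49 between groups against Hspa8, 4.06 against Hspa5, 4.08 against Hspa9 and 3.93 against Hspa4. Each of these 4 differences had an exact permutation p of 0.0571 and an adjusted p of 0.0857 over the 6 ratios, with 3 of 4 photoconverted tumors above every control.

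**Figure D3:**
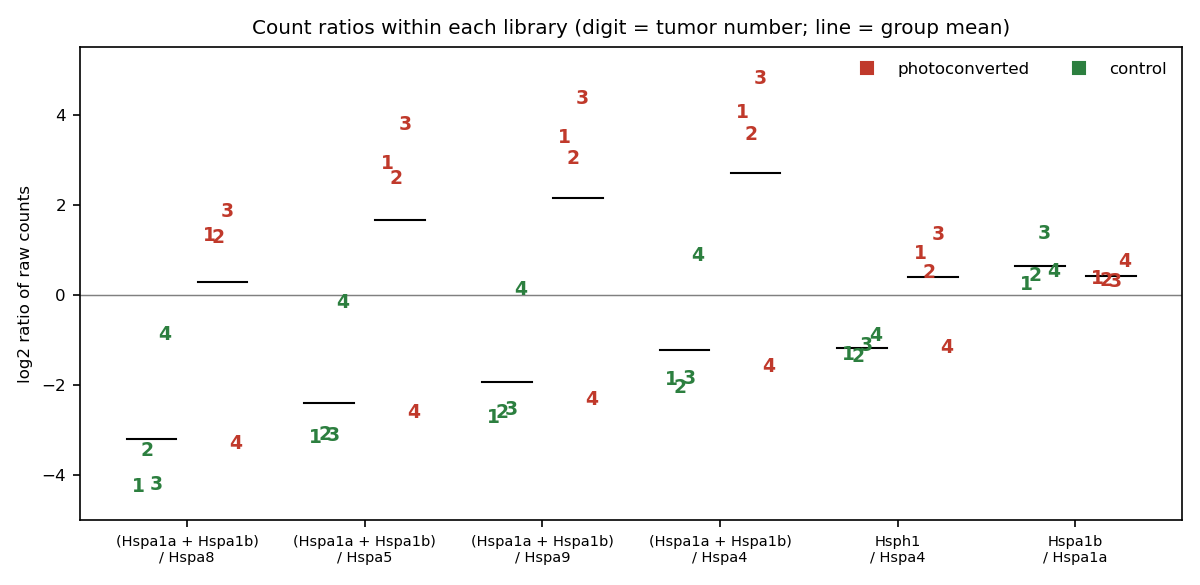
Log2 ratio of raw counts within each library (vertical axis) for the 6 ratios tested, with digits as tumor numbers and lines as group means (n = 4). For the 4 ratios of the pair, photoconverted tumors 1 to 3 lie above all controls, control tumor 4 lies highest among controls, and photoconverted tumor 4 lies among the controls. The ratio of Hspa1b to Hspa1a overlaps between the groups.

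The make-up of the family differed accordingly. Of the counts on the 10 genes, the pair took 55.0%, 51.8%, 64.7% and 3.78% in the photoconverted group, and 2.42%, 3.05%, 2.49% and 17.2% in the controls. Hspa8 took 18.1% to 22.1% in photoconverted tumors 1 to 3 and 31.8% to 46.4% in the other 5 tumors. The 95% Wilson intervals of the pair's share were at most 0.467 percentage points wide, and they cover counting error only. The whole family took 1.22% to 2.10% of all counts in photoconverted tumors 1 to 3 and 0.292% to 0.551% in the other 5.

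**Figure D4:**
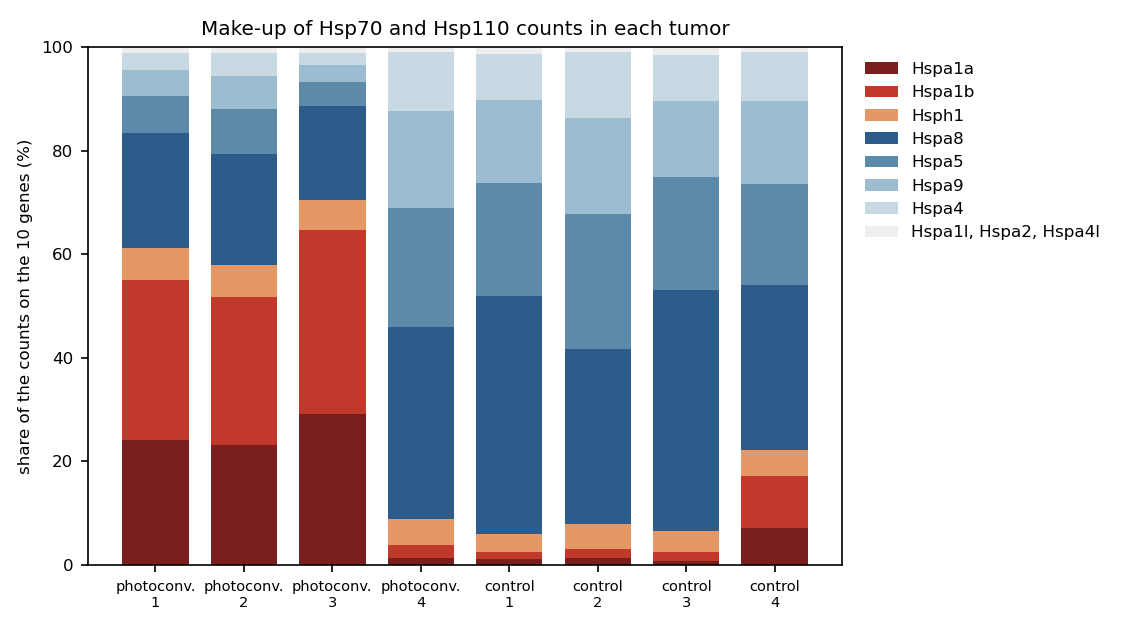
Share of each gene in the counts on the 10 genes (vertical axis, percent) in each tumor (horizontal axis, photoconverted 1 to 4 and control 1 to 4). Hspa1a and Hspa1b together fill over 50% of the bar in photoconverted tumors 1 to 3, 17.2% in control tumor 4 and 2.42% to 3.78% in the other 4 tumors.

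Levels can be compared between genes only per length, here as CPM per kilobase of the longest annotated coding transcript. In controls the order was Hspa8 (780 ± 155, SD, n = 4), Hspa5 (286 ± 26.4), Hspa9 (254 ± 46.2), the pair (122 ± 164), Hspa4 (102 ± 18.2), Hsph1 (55.9 ± 17.1), Hspa4l (5.24 ± 1.09), Hspa1l (1.89 ± 2.53) and Hspa2 (1.88 ± 0.641). The ranges over the 4 controls did not overlap between Hspa8 and Hspa5, Hspa4 and Hsph1, or Hsph1 and Hspa4l, and all other neighbors in this order overlapped. The pair's place rests on control tumor 4, at 368, since the other 3 controls stood at 39.0, 41.8 and 39.0, below every control value of Hspa4 and of Hsph1. The order also depends on the length used. Per kilobase of coding sequence, control means were 187 for Hspa4, 108 for Hspa1b and 73.6 for Hspa1a. On that scale Hspa4l stood at 19.7, and Hspa2 (2.50) passed Hspa1l (2.43). In photoconverted tumors the pair reached 2297 ± 1731 and Hspa8 1149 ± 295 per kilobase of transcript, the first of the 2 scales. The pair had 2.07, 2.01, 2.98 and 0.0852 times the level of Hspa8 per kilobase of transcript in the photoconverted group. In controls it had 0.0438, 0.0757, 0.0450 and 0.453 times that level.

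The partners of Hsp70 were read as lists, each described by its counts and its median beside the median of -0.01 over all genes. The 18 J-domain proteins had a median log2 fold change of 0.13. Of them, 3 were higher at an unadjusted edgeR p under 0.05, against 1.65% of all genes, and none was lower. They were Dnaja4 (2.35, SE 0.59), Dnajb1 (1.83, SE 0.49) and Dnaja1 (0.79, SE 0.21), all cytosolic partners. Dnajb1 stood at 317, 210, 571 and 76.9 CPM in photoconverted tumors and at 86.8, 65.3, 93.4 and 85.5 CPM in controls, so photoconverted tumor 4 lay among the controls. Dnaja1 alone of the list passed the adjusted threshold in the 5 tumors with little Rn45s (log2 1.07, edgeR adjusted p = 0.0291), against 0.243% of all genes called higher there. Dnajb4 had a log2 fold change of 0.80 (SE 0.45) with an unadjusted edgeR p of 0.109.

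The list median of 10 nucleotide exchange factors was 0.02. Of them, 1 was higher at an unadjusted edgeR p under 0.05, against 1.65% of all genes, and none was lower. It was Bag3 (log2 1.18, SE 0.38), which couples Hsp70 to autophagy, at 101, 99.4, 161 and 41.3 CPM in photoconverted tumors and at 26.8, 53.2, 43.4 and 55.5 CPM in controls. Sil1, the exchange factor of Hspa5, had a log2 fold change of -0.23 (SE 0.15), and Bag1 and Bag4 had 0.09 each. None of 6 further partners of Hsp70 had an unadjusted p under 0.05 in edgeR (median -0.03). Of these, Stip1, which passes clients on to Hsp90, had 0.20 (SE 0.13), Ttc1 had 0.25, Stub1, a ubiquitin ligase, had -0.13 and St13 had -0.06.

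The other Hsp70 superfamily genes had none of 5 with an unadjusted p under 0.05 in edgeR and a median of 0.08. Their values were 0.34 for Hspa12a, -0.22 for Hspa12b, 0.08 for Hspa14 and 0.09 for Hspa13, all within 1 standard error of 0. Of the heat shock factors, 4 of 5 were tested (Hsf5 was not) and none had an unadjusted edgeR p under 0.05. Hsf1 itself had a log2 fold change of 0.04 (SE 0.15), Hsf2 0.10 (SE 0.16), Hsf4 0.32 (SE 0.30) and Hsbp1, which binds the HSF1 trimer, 0.00 (SE 0.10).

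Outside the family, 9 of 19 known HSF1 targets were higher at an unadjusted edgeR p under 0.05, against 1.65% of all genes, and none was lower. Of the 19, 17 had a positive log2 fold change, against 6768 of all 14468 genes tested, and the median was 0.35. The 9 were Hspb1, Cryab, Hspe1, Hsp90aa1, Dnajb1, Dnaja1, Bag3, Chordc1 and Ahsa1, of which some also stand in the lists of partners. Hspb1, a small heat shock protein, had a log2 fold change of 3.55 (SE 0.57), at 55.1, 54.8, 89.4 and 11.9 CPM in photoconverted tumors and at 2.66, 3.43, 5.51 and 6.47 CPM in controls. Unlike every family member, Hspb1 did not overlap between the groups. In the 5 tumors with little Rn45s, 2 of the 19 targets passed the edgeR adjusted threshold as higher, against 0.243% of 15252 genes, and none was lower. These 2 were Hspb1 (log2 4.04, edgeR adjusted p = 0.0101) and Dnaja1. Cryab, a second small heat shock protein, had 1.62 (SE 0.37) and was above all controls in 4 of 4 photoconverted tumors.

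The ER and mitochondrial systems around Hspa5 and Hspa9 were read in the same way. None of 17 ER chaperones and genes of the unfolded protein response had an unadjusted p under 0.05 in edgeR, and their median was -0.01, as over all genes. The 4 with the smallest p were Herpud1 (-0.16, SE 0.12), Sdf2l1 (-0.26, SE 0.22), Dnajb11 (0.14, SE 0.12) and Pdia3 (0.14, SE 0.13). Of 9 mitochondrial chaperones, 1 was higher at an unadjusted edgeR p under 0.05, against 1.65% of all genes. It was the Hsp60 co-chaperonin Hspe1 (log2 0.54, SE 0.17), and the list median was 0.03. Hspd1 had 0.32 (SE 0.16), Trap1 0.09 and Lonp1 -0.24.

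**Figure D5:**
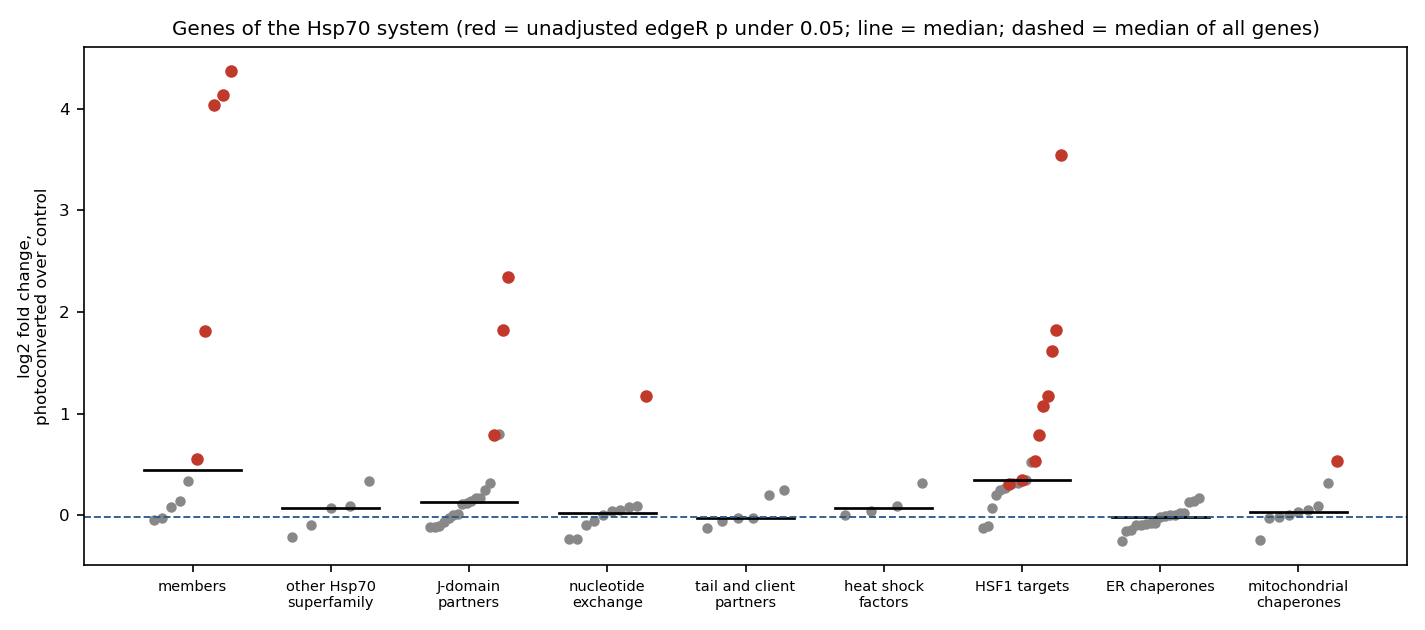
edgeR log2 fold change over all 8 tumors (vertical axis) of every tested gene in the family and in 8 lists of partner, regulator and chaperone genes, with a line at the list median and a dashed line at the median of all genes (-0.01). Red points have an unadjusted p under 0.05. They number 5 of 10 in the family, 9 of 19 among HSF1 targets and 0 of 17 among ER chaperones. Of all genes, 1.65% were higher at that p.

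As a description over the 8 tumors, which share their libraries and their depth, the genes most like each group of members were sought by Pearson's r of log2 CPM. Most like the pair were Cyr61 (0.979), Egr1 (0.976), Rrad (0.972), S100a9 (0.965) and Rcan1 (0.965). Those most like Hspa8 included Tmem185b (0.988), Htr2a (0.978), Hsp90aa1 (0.976) and Trim12a (0.975). Most like Hspa5 were Set (0.984), Nap1l4 (0.977), Klhl2 (0.977), Tmem208 (0.965) and Mir5121 (0.965), and the closest family member to Hspa5 was Hspa9 (0.96). Egr1, an immediate early transcription factor, stood at 149, 133, 235 and 15.2 CPM in photoconverted tumors and at 15.6, 16.9, 20.6 and 31.6 CPM in controls, again with control tumor 4 highest among controls and photoconverted tumor 4 lowest in its group.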

How the data were processed

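Raw counts per gene symbol were deposited by the authors for 8 tumors. Their second deposited table, normalized signal values, equalled those counts divided by size factors of 0.416 to 1.77 (largest difference 2.24e-08) and served only as an alternative for the pair. The submitters' processing notes name CASAVA, FastQC, Trim Galore, HISAT2, featureCounts, DESeq2 and mm10. Their versions, the annotation and the handling of strand and multiply mapping reads are not given in the sources used here.

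Counts were tested with edgeR 4.0.16 (TMM, filterByExpr, glmQLFit and glmQLFTest, Benjamini-Hochberg over all genes tested) in R 4.3.3, with DESeq2 1.42.0 as an alternative. For the pair, the 2 rows were replaced by their sum. CPM used TMM. For single genes in correlations and for deviations of tumors from their group means, log2 CPM used a prior count of 2. The permutation and sign-flip tests of the pair took log2 of CPM without a prior count. Single values were tested by two-sided exact permutation, enumerated in Python 3.11.15. Positions and lengths came from GENCODE M21 (GRCm38), and promoters from RefSeq. In the text, up to 4 genes with the smallest p are named per list. Non-members given per tumor and the 9 HSF1 targets past an unadjusted 0.05 were picked for that after their values were seen, and the members and lists were chosen with earlier results of these data known.

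Deviations of same-numbered tumors from their group means had r = 0.597, 0.107, 0.407 and 0.623, though the labels state no pairing. Between tumors of different number r ran from -0.600 to 0.482. Photoconverted 1 with control 3 (0.455), photoconverted 3 with control 1 (0.482) and photoconverted 4 with control 2 (0.346) were above the 0.107 of number 2. No 2 replicates agreed within sampling noise (chi-square over degrees of freedom at least 23.8). The edgeR procedure was tested on simulated data.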

Additional observations from a re-analysis of the deposited data

Results flagged for a closer look

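Gaps of 1 tumor from the other 3 of its group were sought in 34 sets of 4 values with Dixon's test. Chance alone passes it in about 1 in 20 groups of normally distributed values, or 1.7 of 34. The values were linear CPM and ratios, on which a low tumor stands out less than on log2. Dixon's test was passed in 9 sets, and these are not independent, since 8 of them involve the same counts in control tumor 4. On log2, photoconverted tumor 4 lay far below its group for the pair to Hspa8 (-3.29 against 1.27 to 1.84). Gaps on that scale were not tested. In control tumor 4 Hspa1a was at 433 CPM (next highest control 51.5) and Hspa1b at 623 CPM (79.8). Hspa1l was there at 14.0 CPM (1.78) and the pair at 1056 CPM (120). In control tumor 4 the pair also had 0.543 counts per count of Hspa8 (next highest control 0.0907) and 0.886 per count of Hspa5 (0.117). It had 1.08 per count of Hspa9 (0.170) and 1.82 per count of Hspa4 (0.278). In photoconverted tumor 4 the ratio of Hspa1b to Hspa1a counts was 1.66, against 1.28 in the next highest tumor of its group.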

How the results depend on the processing

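Of 252 values under alternative settings, 231 kept their direction and their side of the threshold, 11 passed it newly, 7 turned in direction and 3 counts of genes moved by over 1.5 times. Genes with an adjusted p under 0.05 numbered 0 in edgeR, 24 in DESeq2 and 42 in the 5 tumors whose Rn45s share was under 10%, and 0 to 11 when 1 tumor was left out. The pair's log2 fold change was 6.29 in those 5 tumors and 3.76 to 5.85 on leaving out 1 tumor. Leaving out 1 tumor gave log2 differences of 2.97 to 4.68 for the ratio of the pair to Hspa8, 3.36 to 5.48 to Hspa5, 3.34 to 5.57 to Hspa9 and 3.23 to 5.37 to Hspa4, and 1.26 to 2.09 for Hsph1 to Hspa4. The last 4 reached an exact p of 0.0286 without photoconverted tumor 4, the smallest possible. Hspa1b to Hspa1a ran from -0.35 to 0.024, turning without control tumor 3. Directions near 0 also turned for Hspa2 (-0.094 in the 5 tumors, -0.0058 to 0.34 on leaving out 1 tumor), Hspa5 (-0.091 to 0.039) and Hspa9 (-0.18 to 0.082). The cause of these changes was not tested. In the fit blocked on replicate number the pair's log2 fold change was 5.18 (SE 1.68, edgeR adjusted p = 0.726), and the block changed no call at an adjusted p of 0.05. Low counts limit Hspa1l in controls (12 to 230 counts) and Hspa2 in all tumors (29 to 201 counts).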
